A study of Homo sapiens with 28 samples.

Results

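The AP-1 transcription factor genes FOS, FOSB, FOSL1, FOSL2, JUN, JUNB, JUND, ATF3, BATF and BATF3 were described in 12 lists of histone mark peaks from a myeloma cell line. They were chosen by name, as 10 of the 19821 protein-coding genes that could be placed on chromosomes, and each was read together with the 20 kb on either side of it. The marks were H3K36me2, H3K27me3 and H3K27ac, mapped by ChIPmentation, in which a transposase inserts the sequencing adapters into the immunoprecipitated chromatin. The cells were TKO, a line derived from the KMS-11 myeloma line and labelled as plasma cells of genotype WHSC1(+/-). WHSC1 is the former symbol of NSD2, a histone methyltransferase gene. All 4 groups share this genotype: TKO cells with nothing added (TKO), and TKO cells expressing wild type NSD2 (WT), NSD2 D1240A or NSD2 F1295A. The question of the study was whether mutant forms of NSD2 change these marks. The vector used and the number of clones are not given in the sources used here.

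Each group had 2 replicates for each mark, and 4 input samples completed the 28 samples. Both replicates of a group were pooled into 1 peak list, so there were 12 lists, no replicate error and no test. Each list rested on 62550152 to 69211726 fragments for H3K36me2 and on 67939521 to 73613753 for H3K27ac after duplicates were dropped. The H3K27me3 lists were shallower and less even, with 41788534 fragments in TKO and 44812488 in WT, and 33219802 in D1240A and 31097592 in F1295A. Intervals given below are exact Poisson 95% intervals on the number of fragments over a peak summit (the pileup) and cover counting error only. Of 10 plasma cell genes, 8 carried H3K27ac at an end of the gene in every list, with a summed fold enrichment of 379 to 447, while the plasma cell surface genes SDC1 and CD38 carried none. SLAMF7, 1 of the 8, had folds of only 5.70, 4.23, 5.78 and 4.77 in TKO, WT, D1240A and F1295A. H3K27me3 covered 100%, 96.5%, 91.5% and 83.5% of its body, and over 10% of the body of no other marker gene. Of 6 myeloid genes none carried H3K27ac at an end in any list, of 6 B cell genes only CIITA and BACH2 did, and of 6 T and NK cell genes CD2 and CD3E did in all lists and GNLY in D1240A alone. NSD2 itself had H3K27ac at an end of the gene in each list (fold enrichment 12.8 in TKO and 14.1 in WT, and 16.2 in D1240A and 15.4 in F1295A), which does not check which NSD2 form was added.

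AP-1 is a dimer of basic leucine zipper proteins. FOS family proteins pair with JUN, JUNB or JUND, while JUN family proteins can also pair among themselves. FOS, FOSB, JUN and JUNB are immediate early genes, which are switched on within minutes of growth factor or stress signals through MAP kinases, and their protein dimers bind the sequence TGANTCA, with a C or G in the middle. ATF3 is a stress-induced family member that binds the longer TGACGTCA type of site. BATF and BATF3 pair with JUN proteins and act with IRF4, a transcription factor that plasma cells depend on, in lymphocytes and dendritic cells. H3K27ac marks active promoters and enhancers, H3K27me3 is written on silent genes by the Polycomb methyltransferases EZH2 and EZH1, and H3K36me2 is the product of NSD2.

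The 250 bases before 4 starts are shown because the marks below differ over them: the FOS start, which lacked an H3K27ac peak in TKO; the JUN start, just upstream of which H3K27ac peaks left a gap; and the upstream and downstream starts of ATF3, of which the first carried H3K27me3 and the second H3K27ac. The sequences are from RefSeq (GRCh38.p14), run 5′ to 3′ on the strand of the gene and end at the base before the start. The starts are those that RefSeq lists and were not checked against transcripts. Capitals mark TATAAA (searched on both strands), TGANTCA and TGANNTCA.
FOS, chr14:75278578-75278827, plus strand: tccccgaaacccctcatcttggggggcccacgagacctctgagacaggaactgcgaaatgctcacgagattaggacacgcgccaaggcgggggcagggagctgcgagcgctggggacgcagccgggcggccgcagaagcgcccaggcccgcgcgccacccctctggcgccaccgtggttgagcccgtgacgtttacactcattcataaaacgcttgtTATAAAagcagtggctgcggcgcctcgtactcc
JUN, chr1:58784048-58784297, minus strand: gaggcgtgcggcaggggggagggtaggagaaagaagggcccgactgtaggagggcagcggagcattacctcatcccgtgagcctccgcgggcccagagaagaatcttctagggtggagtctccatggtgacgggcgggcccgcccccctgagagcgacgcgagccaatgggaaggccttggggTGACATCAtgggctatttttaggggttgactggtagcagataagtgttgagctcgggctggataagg
ATF3 upstream start, chr1:212565157-212565406, plus strand: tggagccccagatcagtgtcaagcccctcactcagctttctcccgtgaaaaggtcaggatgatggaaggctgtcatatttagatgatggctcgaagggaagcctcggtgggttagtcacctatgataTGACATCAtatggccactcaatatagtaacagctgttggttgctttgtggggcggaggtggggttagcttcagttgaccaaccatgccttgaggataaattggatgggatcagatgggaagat
ATF3 downstream start, chr1:212614768-212615017, plus strand: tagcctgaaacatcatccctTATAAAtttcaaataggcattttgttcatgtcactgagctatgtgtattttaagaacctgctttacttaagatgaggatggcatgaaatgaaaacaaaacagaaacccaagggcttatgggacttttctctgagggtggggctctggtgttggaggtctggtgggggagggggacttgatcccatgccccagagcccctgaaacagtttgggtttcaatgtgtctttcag

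The FOS sequence held TATAAA 33 bases before the start, and FOSB and JUNB held it 30 and 31 bases before theirs. JUN held TGACATCA, a TGANNTCA match, 67 to 60 bases before its start, and the upstream start of ATF3 held the same 8 letters from base 123 before its start. With the first 50 bases of the transcript included, so over 300 bases, 9 promoters of 8 members were in the RefSeq table, which has no entry for FOSL1 or BATF3. TGANNTCA was in 3 of the 9 and in 9.81% of 22156 promoters of protein-coding genes, and JUND held 2 matches (TGACGTCA and TGAGCTCA). TATAAA was in 4 of the 9 against 9.46% of all, at any position. Besides FOS, FOSB and JUNB it was before the downstream start of ATF3, but 230 bases from it. TGANTCA was in 1 of the 9, as TGACTCA at base 4 after the start of FOSL2, against 6.16% of all. The CArG box, the binding sequence of SRF, was in none of the 9 and in 1.25% of all. Bases farther than 250 before a start were not searched, so a CArG box there would have been missed. No match overlapped another. A match is a run of letters and not a measured site.

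FOS (chromosome 14, 75278828 to 75282230, plus strand) was the only member called between groups for H3K27ac at the start or for H3K27me3 over the gene body. It encodes the founding FOS family protein. Both marks covered more of the gene and its flanks in WT than in TKO, H3K27ac at the promoter and H3K27me3 within the gene and upstream of it. No other protein-coding gene lies within 20 kb of it, and no H3K36me2 peak was listed in that window in any group.

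H3K27ac at the FOS start was listed in the 3 groups expressing NSD2 and not in TKO. Fold enrichment here is the pileup plus 1 over the constant background of the list, as the authors' peak caller wrote it. In WT the peak ran from 292 to 52 bases before the start, with 32 fragments at the summit (interval 21.9 to 45.2) and a fold enrichment of 4.99. In D1240A it ran from 279 bases before to 119 after the start, with 37 fragments (26.1 to 51.0) and a fold of 6.10, and a weaker peak of 19 fragments and fold 3.21 lay 750 to 499 bases before the start. In F1295A it ran from 279 to 53 bases before the start, with 37 fragments and a fold of 6.04. These peaks covered 199, 250 and 198 of the 250 bases shown above, and none of them in TKO. No fold change against TKO can be given, since a summit below the calling limit is not listed, and the lowest pileup in the TKO list was 14. The ratio of the FOS start peak was 1.22 for D1240A over WT and 1.21 for F1295A over WT, within the overlap of their intervals. Over the 9135 genes with a start peak in all lists the median ratios were 1.17 and 1.05. With each list divided by its median, the FOS ratios were 1.03 and 1.14. In lists from bulk cells, fewer cells with the mark and less of it per cell cannot be told apart.

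A start peak counted as higher or lower where it was present in 1 list and absent in the other, or where the fold enrichment differed by at least 1.5 times, within 1 kb of the start. FOS was the 1 member of 8 with a listed start that was higher in WT than in TKO, where 2.26% of 15812 genes were higher, and no member was lower, against 4.12% of genes. Between D1240A and WT no member was higher (6.23% of genes) or lower (1.48%), and between F1295A and WT no member was higher (3.42%) or lower (1.46%). The FOS peak was a low one: it stood above 10.0% of the genes with a start peak in WT, 11.7% in D1240A and 12.6% in F1295A.

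About 20 kb upstream of FOS all 4 groups had H3K27ac. The strongest peak there had 48 fragments and a fold of 7.35 in TKO, with a second peak of 30 fragments, 42 fragments and a fold of 6.50 in WT, 47 and 7.71 in D1240A, and 31 and 5.09 in F1295A. In TKO, then, this distant peak was listed and the promoter peak was not, and in F1295A the promoter peak was the stronger of the pair. WT had 1 more peak, 15132 to 15342 bases after the start, with 21 fragments and a fold of 3.33.

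**Figure D1:**
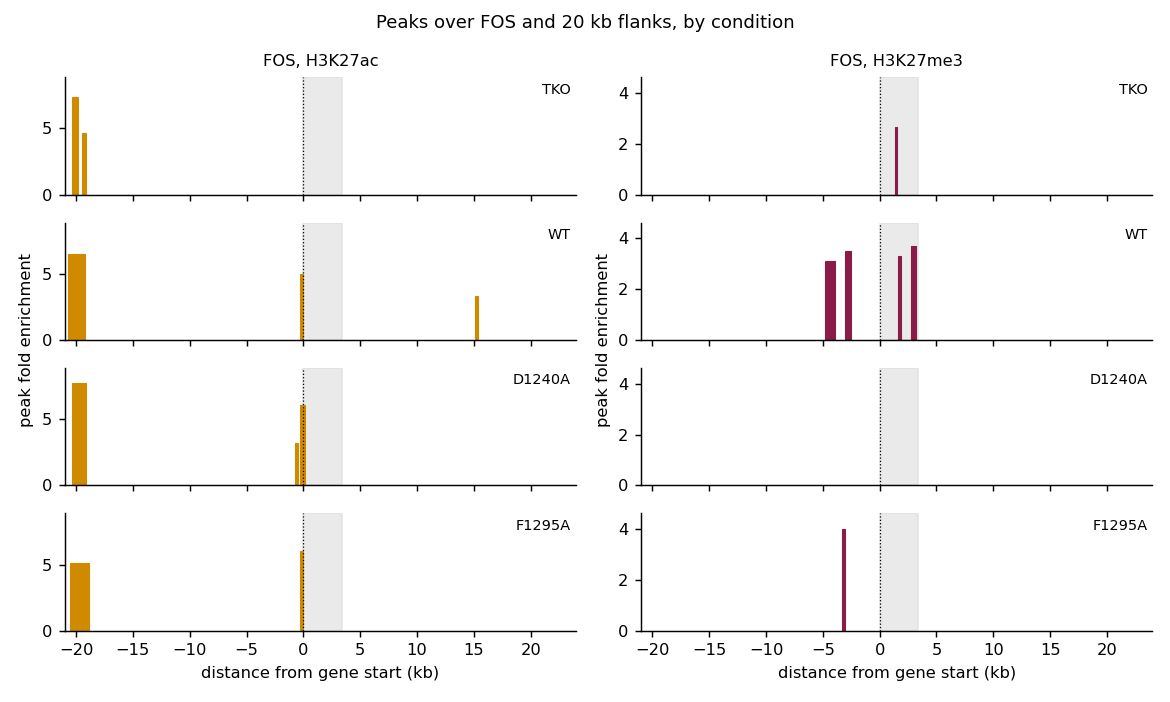
Peaks over FOS and 20 kb on either side in each group, for H3K27ac (left) and H3K27me3 (right). The horizontal axis is the distance from the FOS start in kb, the width of a bar is the length of a peak and its height the fold enrichment, and the grey band is the gene. The start peak of H3K27ac is missing in TKO (fold 4.99 in WT, 6.10 in D1240A and 6.04 in F1295A), and 4 H3K27me3 peaks stand in WT against 1, 0 and 1 in TKO, D1240A and F1295A.

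H3K27me3 lay over the FOS gene body and upstream of it in WT and hardly in the other groups. TKO had 1 peak, 1313 to 1549 bases after the start, with 12 fragments (6.2 to 21.0) and a fold of 2.65. WT had 4: 2 before the start (4783 to 3945 bases before it with 15 fragments, 3042 to 2562 bases before it with 17) and 2 in the gene (1587 to 1918 bases after the start with 16 fragments and a fold of 3.32, 2727 to 3185 bases after it with 18 and a fold of 3.71). D1240A had none, and F1295A had 1, 3301 to 3008 bases before the start, with 15 fragments and a fold of 4.03. None of these peaks touched the 1 kb around the start, so the H3K27ac and H3K27me3 peaks of WT stood side by side and did not overlap.

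With peaks less than 1 kb apart joined, H3K27me3 covered 7.0% of the FOS body in TKO, 47.0% in WT and 0% in D1240A and in F1295A. A difference of at least 25 percentage points was called. WT was higher than TKO by 40.0 points, as in 0.357% of 19313 genes of at least 1 kb, and no member was lower (0.264% of genes). D1240A was lower than WT at FOS alone among the members (0.725% of genes) and higher at none (0.0673%), and F1295A was lower at FOS alone (0.575%) and higher at none (0.0725%). The WT value includes the gap between its 2 body peaks. Without joining, FOS was covered over 23.2% in WT and every difference was under 25 points, and with only peaks of −log10 q of at least 5 the WT coverage was 13.5%. The pileups behind these peaks, 12 to 18, lie close to the lowest of their lists (11 in TKO, 12 in WT, 10 in each mutant), and the D1240A and F1295A lists had fewer fragments; their part in the difference was not tested.

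None of the other members shared this pattern. H3K27me3 covered 31.7%, 41.7%, 20.9% and 28.8% of ATF3 in TKO, WT, D1240A and F1295A, and 7.6%, 7.3%, 5.4% and 14.7% of BATF3. The bodies of FOSB, FOSL1, FOSL2, JUN, JUNB, JUND and BATF had none in any list. By Euclidean distance over the 4 coverage values, the genes nearest to FOS were ZG16B (7.25 points away), MT1B (7.29), MYOG (7.77), WFDC12 (7.92) and CHIT1 (9.01), all with 39.6% to 49.1% in WT and at most 2.3% elsewhere. The nearest members were BATF3 at 42.7 points and ATF3 at 43.7. In all, 18 of 19313 genes had at least 25% in WT and at most 10% in each other group. MYOG encodes the muscle regulator myogenin, MT1B a metallothionein and CHIT1 a chitinase.

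FOSB (chromosome 19, 45467996 to 45475179), which like FOS is an immediate early gene, had a strong H3K27ac peak touching the 1 kb around its start in all groups. H3K27ac peaks covered 0 of the 250 bases before the start in TKO, WT and D1240A, and all 250 in F1295A. The strongest peak at its start had a fold of 22.7 in TKO and 19.2 in WT, and 22.8 in D1240A and 25.3 in F1295A, and all these intervals overlapped. A second peak, with its summit 10863 bases after the start and past the end of the gene, was higher than the start peak in each list, with folds of 38.1, 33.7, 35.6 and 33.9. It was 2296 bp long in TKO and 1557 in WT, and 2290 in D1240A and 2051 in F1295A. ERCC1 and RTN2 lie in the window, but none of their listed starts was within 1 kb of this peak. H3K27me3 had no peak in the FOSB body, and 1 small peak about 3.2 kb before the start was listed in each group, with 14 fragments in TKO and 16 in WT, and 14 in D1240A and 18 in F1295A. H3K36me2 peaks of 20 fragments in WT, 16 in D1240A and 20 in F1295A lay at the same place. H3K36me2 covered 5.1%, 0.6%, 0.5% and 5.8% of the window in TKO, WT, D1240A and F1295A.

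FOSL1 (chromosome 11, 65892049 to 65900545) and FOSL2 (chromosome 2, 28392858 to 28417317) encode the other FOS family proteins, FRA1 and FRA2. For FOSL1 the start is not in the promoter table, so both gene ends were read. H3K27ac at the lower coordinate had a fold of 17.3 in TKO and 13.9 in WT, and 19.4 in D1240A and 16.4 in F1295A, and at the higher coordinate 13.2, 14.2, 12.8 and 12.1. The lower peak reached the start window of CCDC85B in all lists, and 6 other genes share the FOSL1 window, so its 24.8% to 29.7% of H3K27ac coverage cannot be assigned to FOSL1. FOSL2 had 1 H3K27ac peak in each list, across its start, 3248, 3661, 3214 and 3603 bp long in TKO, WT, D1240A and F1295A. Its fold was 10.95, 14.4, 13.2 and 12.7, and all these intervals overlapped. No H3K27me3 peak lay in the window of FOSL1 or FOSL2 in any list, and none of H3K36me2 in that of FOSL2.

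JUNB (chromosome 19, 12791486 to 12793315) and JUND (chromosome 19, 18279694 to 18281622, minus strand) had the strongest H3K27ac peaks touching the 1 kb around a listed start. The JUNB summit lay more than 1 kb from its start in every list, so its fold is that of the domain and not of the start itself. JUNB lay inside 1 broad H3K27ac domain in every list, with a fold of 49.5 in TKO and 46.9 in WT, and 50.4 in D1240A and 39.6 in F1295A. Both are JUN family genes, and JUND, unlike JUN and JUNB, is known for steady expression in resting cells. The JUND peak just upstream of its start had a fold of 40.5, 36.1, 43.2 and 36.9 in the same order. The JUNB and JUND intervals overlapped in TKO, D1240A and F1295A but not in WT, where JUNB was 41.8 to 52.4 and JUND 31.7 to 41.0.

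The domain around JUNB was shorter in WT than in the other lists. The main JUNB peak was 10848 bp long in TKO and 8156 in WT, and 10792 in D1240A and 10370 in F1295A. In WT a separate piece of 1386 bp, with 31 fragments and a fold of 4.84, stood 7134 to 5749 bases before the start, where the other lists had 1 joined peak. H3K27ac covered 45.7%, 33.4%, 42.7% and 43.0% of the JUNB window in TKO, WT, D1240A and F1295A. A difference of at least 10 points was called over windows: JUNB was the only member called between WT and TKO, where 0.212% of 19821 genes were, and none was called between D1240A and WT (0.363%) or F1295A and WT (0.989%). The window also holds HOOK2, PRDX2, THSD8 and RNASEH2A, and a start of HOOK2 lies inside the JUNB domain. About 10.4 kb upstream of JUND a peak of 3781 bp in TKO, 3430 in D1240A and 3694 in F1295A, with folds of 18.9, 17.2 and 16.7, was listed in WT as 2 peaks of 2028 and 1135 bp with folds of 12.5 and 4.39. The JUND peak on the side of the gene was not shorter in WT, at 2534, 2818, 2831 and 2802 bp in TKO, WT, D1240A and F1295A, while the one just before the start was, at 1871, 1365, 1521 and 1767 bp. The whole WT list of H3K27ac had shorter peaks (median 660 bp against 705 in TKO, 747 in D1240A and 795 in F1295A) and covered 107 Mb against 115, 112 and 117; its part in these lengths was not tested.

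JUN (chromosome 1, 58780791 to 58784047, minus strand) had its H3K27ac in a pair of peaks, 1 upstream and 1 on the side of the gene. The gene-side peak ran across the start, to 10, 24 and 18 bases before it, in TKO, D1240A and F1295A, while in WT it ended 5 bases inside the gene. The gap between them was 248 bp in TKO and 257 in WT, and 274 in D1240A and 285 in F1295A, and it held most of the JUN sequence shown above, of which H3K27ac peaks covered 10, 0, 24 and 18 of 250 bases. At JUND a gap of 398, 315, 317 and 270 bp lay over the start itself in all lists. The JUND window held H3K27me3 in WT alone, as 1 peak of 14 fragments 13243 to 13609 bases after the start. The stronger JUN peak had 83 fragments (66.1 to 103) and a fold of 12.6 in TKO, 122 (101 to 146) and 18.6 in WT, 88 and 14.3 in D1240A, and 88 and 14.2 in F1295A. It was the gene-side peak in TKO, WT and F1295A and the upstream one in D1240A. WT was thus the highest, at 1.48 times TKO and just under the limit of 1.5, with intervals that overlapped at their ends. Over the 9135 genes with a start peak in all lists the median ratio of WT to TKO was 0.925, and with each list divided by its median JUN was called higher in WT than in TKO and lower in D1240A than in WT. The ratio of D1240A to WT was 0.768 between these strongest peaks, 0.717 between the gene-side peaks and 0.909 between the upstream ones, against a median of 1.17 over those genes. The ratio of F1295A to WT was 0.761 on the gene side and 0.849 upstream, against 1.05, and that of WT to TKO upstream was 1.34. H3K27ac covered 64.7%, 73.0%, 67.1% and 65.6% of the JUN body. Neither H3K27me3 nor H3K36me2 had a peak in the JUN window in any list.

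**Figure D2:**
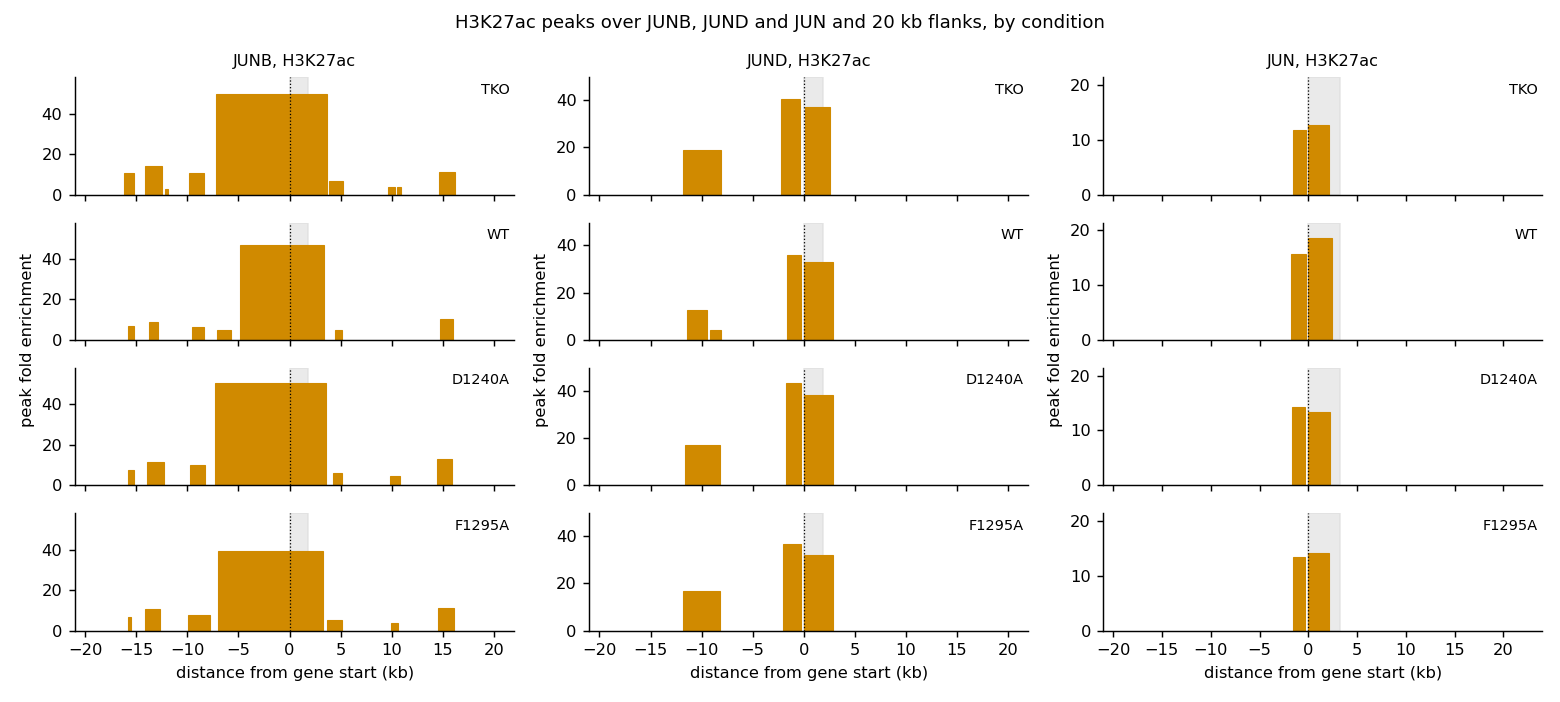
H3K27ac peaks over JUNB, JUND and JUN and 20 kb on either side in each group. The horizontal axis is the distance from the gene start in kb along the direction of transcription, bar width is peak length and bar height fold enrichment, and the grey band is the gene. JUNB sits in 1 domain, which is 8156 bp long in WT and 10370 to 10848 bp in the other groups, JUND has a gap over the start, and the JUN gap lies just upstream of the start in TKO, D1240A and F1295A and reaches it in WT alone.

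Ordered by the height of the start peak, the 8 members with a listed start ran from JUNB and JUND through FOSB to JUN, FOSL2, BATF, ATF3 and FOS in WT, with ATF3 above BATF in TKO and F1295A. FOSB stayed below JUND without overlap of the intervals in all lists. JUN and FOSL2 overlapped in all lists, as did BATF and ATF3. FOS was below ATF3 without overlap in WT (at most 6.98 against at least 7.21), while the intervals of the pair overlapped in D1240A and F1295A. About 60% of genes had a start peak (59.8% in TKO and 60.4% in D1240A, for example), with a median fold of 17.3 in TKO and 15.6 in WT, and 18.6 in D1240A and 16.7 in F1295A. JUNB, JUND and FOSB stood above the median of those genes in every list, and FOSL2, BATF, ATF3 and FOS below it. These places hold for the listed starts only, and for peaks that touch the 1 kb around them, wherever the summit lies. No summit lay within 1 kb of the start for JUNB in any list, for FOSB in D1240A, or for FOSL2 in TKO and D1240A. The strongest H3K27ac peak inside ATF3, away from both of its listed starts, had folds of 34.5 in D1240A to 44.4 in TKO.

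**Figure D3:**
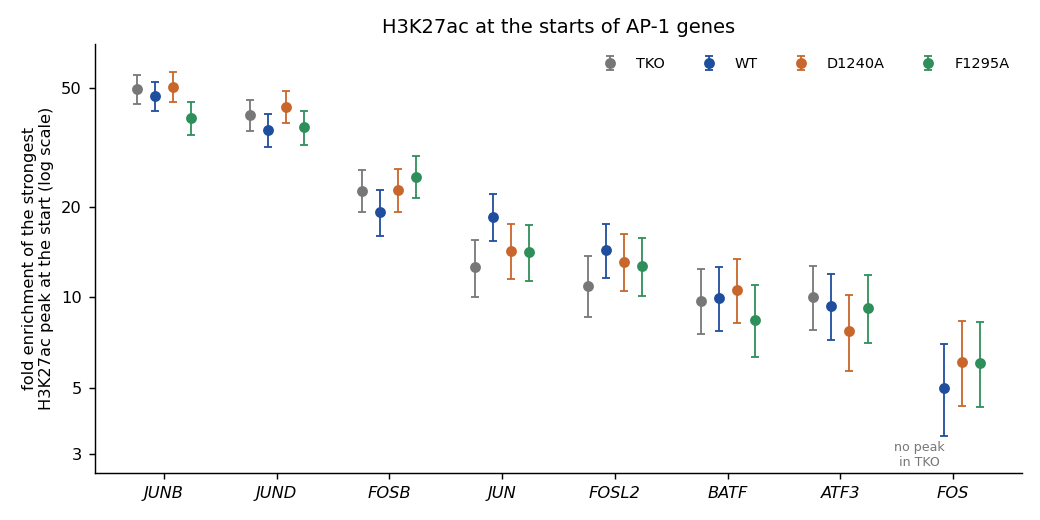
Fold enrichment of the strongest H3K27ac peak touching the 1 kb around the listed starts of 8 AP-1 genes (vertical axis, log scale) in the 4 groups (colours). The summit may lie farther away, as it does for JUNB in every group. ATF3 is drawn at its downstream start, and stronger peaks away from its listed starts are left out. Each point is 1 pooled list and the bars are exact Poisson 95% intervals of the pileup. JUNB (39.6 to 50.4) and JUND (36.1 to 43.2) are highest, FOS is lowest (4.99 to 6.10) and has no peak in TKO.

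ATF3 (chromosome 1, 212565407 to 212620777) carried all 3 marks. It was called between groups for both methyl marks over its window, though not under every alternative. Its listed starts are an upstream and a downstream one, neither checked against transcripts, and GARIN4 shares its window. H3K27me3 covered 155, 250, 250 and 250 of the 250 bases before the upstream start in TKO, WT, D1240A and F1295A, and none of the 250 before the downstream start in any list. H3K27ac covered all 250 bases before the downstream start in every list, with folds of 10.1, 9.37, 7.71 and 9.22, and overlapping intervals. The upstream start had a H3K27ac peak inside its 1 kb window too, with folds of 5.85, 6.65, 5.30 and 5.72, but not over the bases shown. Far stronger H3K27ac peaks lay more than 1 kb from both listed starts: about 6 kb before the downstream start (folds of 44.4, 43.7, 34.5 and 40.2), about 22 kb after it (34.4, 33.4, 28.4 and 28.6) and about 56 kb before it (18.2, 29.9, 22.8 and 21.6). At the last of these WT was highest, with 197 fragments against 120 in TKO. The peak about 6 kb before the downstream start lay inside the gene. Whether a start that is not listed lies under it was not tested, so it cannot be taken for a distal element.

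H3K27me3 over the ATF3 window was spread over 20 to 25 peaks a list, of at most 29 fragments. It covered 24.2%, 29.5%, 18.0% and 18.6% of the window in TKO, WT, D1240A and F1295A. No member was called between WT and TKO (1.1% of genes were). ATF3 was the 1 member called between D1240A and WT (1.95% of genes) and between F1295A and WT (2.18%), lower both times. With each list cut to its strongest peaks up to the covered length of the shortest, both differences turned to 0.85 and 1.47 points higher than WT, so the direction was not the same at equal covered length. They stayed lower, and called, with peaks of −log10 q of at least 5 (-10.8 and -10.5 points) and with 10 kb flanks (-14.0 and -12.8), and lower but under the limit with 50 kb flanks (-7.63 and -8.08).

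H3K36me2 over the ATF3 window went the other way, 19.0% in TKO and 3.9% in WT, and 13.2% in D1240A and 18.0% in F1295A, in 24, 9, 18 and 22 peaks. ATF3 was the 1 member called between WT and TKO, where 7.21% of genes were, and between F1295A and WT, where 6.06% were, and none was called between D1240A and WT (2.94%). With 1 of 10 members, these counts are near the shares of all genes, and nothing about the members is read from them. Over the gene bodies no member passed 25 points for H3K36me2, against 2.72% of genes for WT against TKO, 1.09% for D1240A against WT and 2.33% for F1295A against WT. The difference between WT and TKO at ATF3 was -7.90 points with lists of equal covered length and -7.40 points with peaks of −log10 q of at least 5, both under the limit. With 10 kb flanks it was -9.08 points, also under the limit, and JUNB was the member called instead, at -17.98 points. The difference between F1295A and WT at ATF3 was 8.12 points, under the limit, with peaks of −log10 q of at least 5, and over it with the other flanks and at equal covered length.

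**Figure D4:**
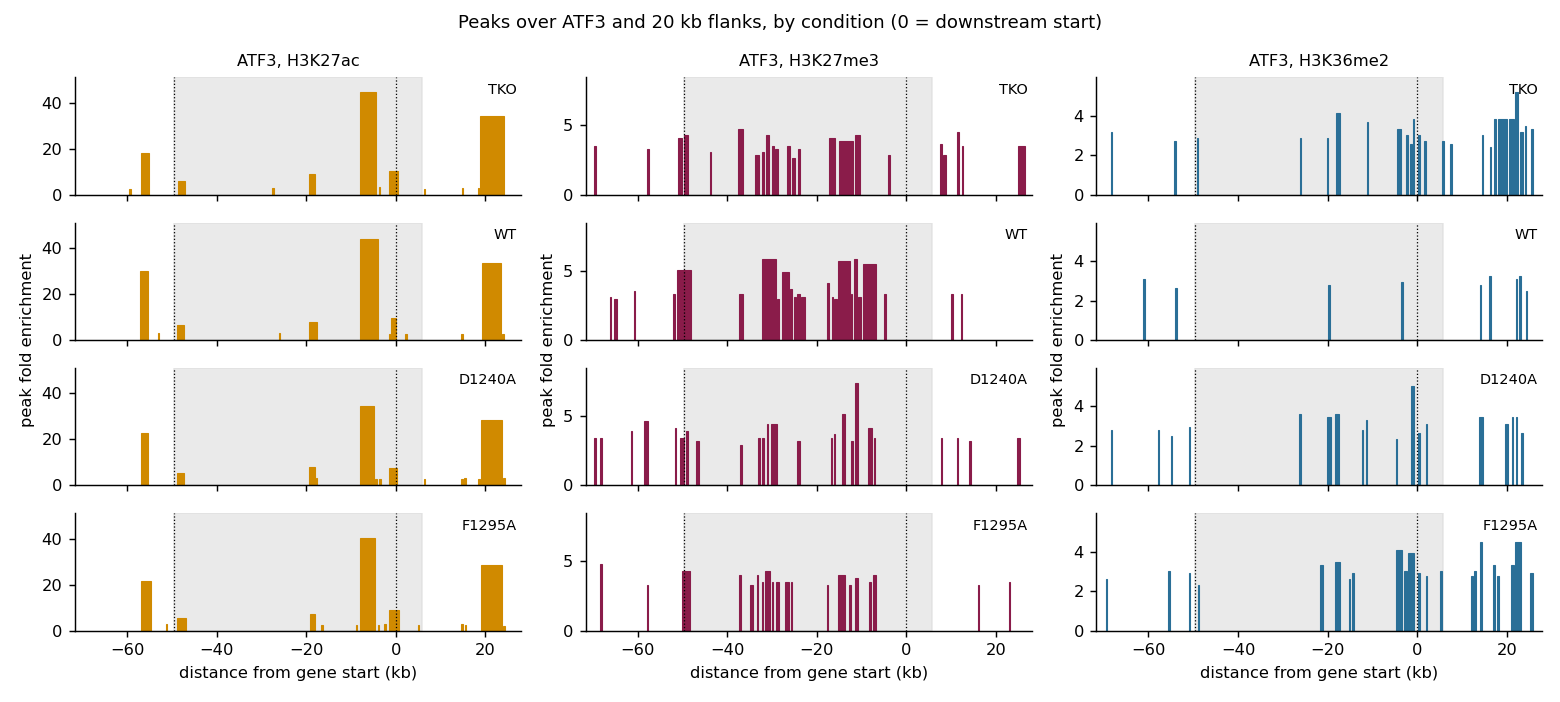
Peaks over ATF3 and 20 kb on either side in each group, for H3K27ac (left), H3K27me3 (middle) and H3K36me2 (right). The horizontal axis is the distance in kb from the downstream start, bar width is peak length and bar height fold enrichment, the grey band is the gene and dotted lines are its listed upstream and downstream starts. H3K27me3 sits over the upstream start and H3K27ac over the downstream start in all groups, and H3K36me2 peaks number 9 in WT against 24 in TKO.

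BATF (chromosome 14, 75522469 to 75546992), which lies 240 kb from FOS, had 1 H3K27ac peak over its start in every list, of 1762, 1532, 1575 and 1698 bp in TKO, WT, D1240A and F1295A. Its fold was 9.75, 9.98, 10.6 and 8.43, with overlapping intervals. BATF had no H3K27me3 in its window and at most 1 H3K36me2 peak, in TKO and F1295A. BATF3 (chromosome 1, 212686417 to 212699840), 65.6 kb from ATF3, had weak H3K27ac, below the FOS start peak in each of the 3 lists that held one. At the higher of its coordinates the fold was 3.75 in TKO and 4.23 in WT, and 3.69 in D1240A and 5.72 in F1295A, and at the lower one there was no peak in TKO and WT and a fold of 2.57 in D1240A and 3.18 in F1295A. The interval of the peak at the higher coordinate overlapped that of the FOS start peak in WT, D1240A and F1295A. BATF3 H3K36me2 covered 2.4%, 6.7%, 3.0% and 14.7% of the window in TKO, WT, D1240A and F1295A. About 3.4 kb inside the lower coordinate H3K27me3 had a peak in every list, with 27, 36, 24 and 24 fragments, and H3K36me2 had one at the same place, with 25, 30, 20 and 26. ATF3 and BATF3 share a block of 1 Mb in which each of the 12 lists covered 2.87% to 13.5% of the bases, against lowest values of at most 0.590% in the blocks of the other members.

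H3K36me2 around the members was sparse, and in 6 of the 10 it covered less of the window in WT than in TKO. No peak was listed in the windows of FOS, FOSL2 and JUN. It was higher in 1 (BATF3) and equal in 3, with a median difference of -1.19 points against -0.13 over all 19821 genes. From WT to F1295A it was higher in 7 members and lower in none, with a median of 1.64 against 0.06 over all genes, and from WT to D1240A it was higher in 3 and lower in 2. JUNB had 9.4% in TKO and 0% in WT, and 2.1% in D1240A and 2.4% in F1295A. The mean difference of the members was -3.02 points from TKO to WT against -2.05 over all genes. It was 3.33 against 2.085 from WT to F1295A and 0.81 against 0.84 from WT to D1240A. The shares of all genes that were higher or lower were not counted. These comparisons share the WT list, which covered 72.98 Mb for H3K36me2 against 94.35 in TKO, 77.14 in D1240A and 94.34 in F1295A. The part of this list-wide difference in the member values was not tested.

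**Figure D5:**
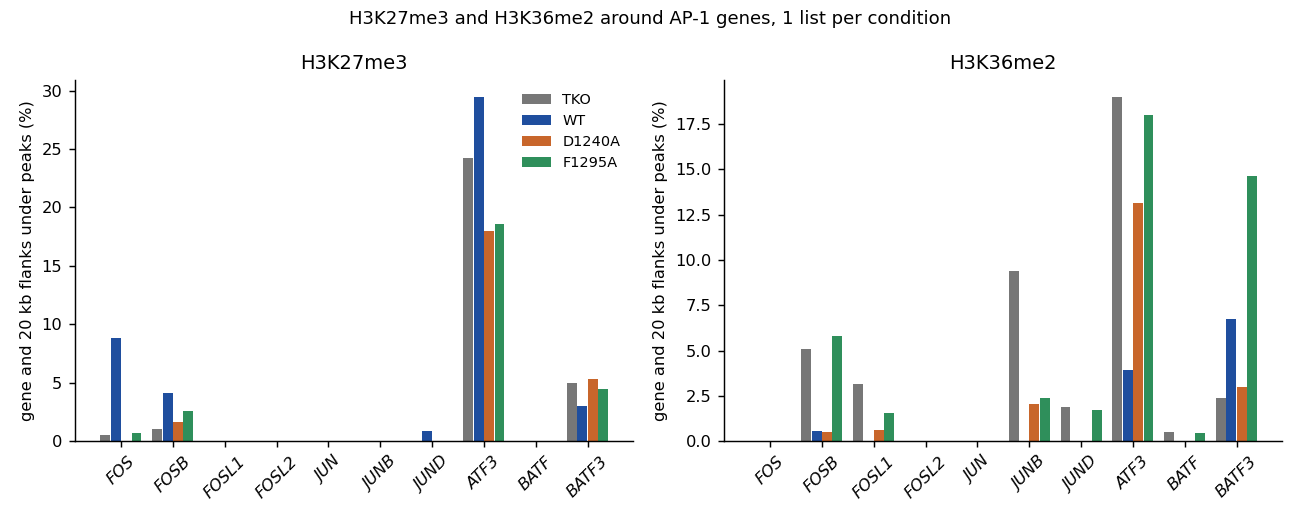
Percent of each AP-1 gene with 20 kb flanks (vertical axis) under H3K27me3 (left) and H3K36me2 (right) peaks in the 4 groups, 1 pooled list each, with peaks less than 1 kb apart joined. ATF3 is the highest member for H3K27me3, most in WT (29.5%), and for H3K36me2 in TKO, D1240A and F1295A but not in WT, where it has 3.9% and BATF3 6.7%, and FOS has H3K27me3 mainly in WT (8.8%) and no H3K36me2.

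Around the members, 75 other genes of the AP-1 pathway were read in the same way, in 4 groups. No gene of the 75 was called for H3K27me3 in any comparison, which is near the background, since at most 0.725% of all genes were called in any 1 direction. For H3K36me2, 6 of the 75 were called between WT and TKO against 2.72% of all genes, 3 between D1240A and WT against 1.09%, and 4 between F1295A and WT against 2.33%. Among 23 other immediate early genes, 3 were lower in H3K36me2 in WT than in TKO: the immediate early response gene IER5 (46.2% in TKO and 8.9% in WT, and 36.8% in D1240A and 18.4% in F1295A), the antiproliferative gene BTG2 (81.6%, 11.6%, 11.8% and 20.5%) and the anti-apoptotic gene MCL1 (85.6%, 14.9%, 47.2% and 87.2%). IER5 and MCL1 were higher in D1240A than in WT and MCL1 in F1295A than in WT. Among 16 partners of AP-1, 3 were lower in WT: ATF6, a sensor of unfolded protein in the endoplasmic reticulum (82.7%, 33.0%, 61.4% and 68.8%), ATF7 (82.7%, 44.1%, 68.6% and 90.2%) and NFE2L2, the regulator of the oxidative stress response (27.1%, 0%, 5.1% and 14.05%). ATF6 was higher in D1240A and in F1295A than in WT, and ATF7 in F1295A. Of 20 AP-1 target genes, the integrin gene ITGA5 was higher in F1295A than in WT (8.0%, 2.1%, 16.7% and 46.5%), and none of the 16 inputs was called. The median H3K36me2 difference from TKO to WT was 0 in the early genes and targets, -0.23 points in the inputs and -0.50 in the partners, against 0 over all genes.

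H3K27ac at the starts could be read for 55 of the 75. Between WT and TKO 2 were higher and 3 lower, against 2.26% and 4.12% of all genes. Between D1240A and WT 2 were higher and 1 lower, against 6.23% and 1.48%, and between F1295A and WT 2 were higher and 2 lower, against 3.42% and 1.46%. With 1 to 3 genes of 55 in each, nothing is read from these counts. Of the early genes 15 could be read. NR4A3, an orphan nuclear receptor gene, had a fold of 22.2 in TKO, 3.2 in WT, 3.1 in D1240A and no peak in F1295A, so it was lower in WT than in TKO and lower in F1295A than in WT. KLF2, a zinc finger transcription factor gene, had 12.8 in TKO and 8.5 in WT, and 11.2 in D1240A and 13.8 in F1295A, and was lower in WT than in TKO and higher in F1295A than in WT. EGR2 was higher in D1240A than in WT (6.9, 6.5, 9.8 and 8.0). EGR1, which is induced with FOS by the same signals, had 20.7, 18.6, 21.5 and 22.9 and was not called. Of 14 inputs, the kinase gene MAP2K2 had 13.4, 8.2, 12.7 and 12.6, and was lower in WT than in TKO and higher in D1240A and F1295A than in WT. MAPK10 (2.6, 7.0, 5.0 and 4.5) and MAP2K4 (no peak, 3.2, no peak and 3.8) were higher in WT than in TKO, MAPK10 was lower in F1295A than in WT, and MAP2K4 lower in D1240A. None of 13 partners and 13 targets was called. Over genes with a start peak in all 4 lists, the median ratio of WT to TKO was 0.898 in 13 early genes, 0.913 in 12 inputs, 0.996 in 12 partners and 0.993 in 4 targets, against 0.925 over all 9135 such genes. That of D1240A to WT was 1.16 in the early genes and in the inputs, 1.09 in the partners and 1.06 in the targets, against 1.17. The early genes and inputs thus lay close to all genes in both. Of the AP-1 partners JDP2, a repressor of AP-1 sites whose gene is the next protein-coding one after FOS on chromosome 14, had 7.4, 7.7, 6.1 and 6.5.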

How the data were processed

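ChIPmentation of 3 marks in 4 groups gave 24 immunoprecipitates and 4 inputs; the inputs are not analysed here. The submitters' processing notes give the GRCh38 build and, among the tools, MACS2 2.2.7.1, Bowtie2 2.4.5, FastQC 0.11.4 and Trimmomatic 0.36. Per the file headers the authors ran MACS once per group and mark on both replicates, without a control or a local background, with paired-end fragments, a q limit of 0.05 and 1 fragment per position. The deposited signal is the pileup, the unscaled number of fragments over a summit, per the file headers. The deposited fold enrichment ratio is the pileup plus 1 over a constant of the list, and the authors' −log10 q of a peak was deposited beside it, taken against the same background. From 61% to 87% of fragments were duplicates. PCR copies without molecular identifiers are not independent molecules, and no peak at a gene means only that none passed the limit.

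Gene coordinates were those of RefSeq on GRCh38.p14, without 153 of 19974 protein-coding rows that lie on scaffolds. Starts came from the RefSeq promoter table, which holds 8 of the 10 members and 15812 genes. Peaks of the methyl marks were joined where under 1 kb lay between them. Gene body coverage was compared over 19313 genes of at least 1 kb and called at 25 points, coverage with 20 kb flanks at 10 points, and H3K27ac start peaks at gained, lost or 1.5 times. WT was compared with TKO, and each mutant with WT, so that all contrasts share the WT list. The text names all members, up to 4 genes per pathway group, mark, contrast and direction past the limit with the largest change first, the 5 genes nearest to FOS, NSD2 and the cell type markers; EGR1 and JDP2 were named after their values were seen. The members and lists were chosen with earlier results of these data known. Alternatives were no joining, 3 kb joining, stricter peaks, equal covered length, a common minimum fold, other limits, windows and flanks, and division by the list median. The steps were tested on copies of the WT lists with planted peaks. This checks the recovery of added peaks, and not noise, depth or values near the limits. They were run with matplotlib 3.10.9, pandas 2.3.3, numpy 2.4.6, SciPy 1.17.1 and Python 3.11.15.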

Additional observations from a re-analysis of the deposited data

How the results depend on the processing

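No paired analysis was possible because the deposited lists pool both replicates, and for the same reason no replicate could be left out. The FOS H3K27me3 differences over the gene body kept their direction under every alternative but lost the call under 3. They were 16.3 points for WT minus TKO and -23.2 for D1240A minus WT and for F1295A minus WT without joining, and 13.5, -13.5 and -13.5 both with peaks of −log10 q of at least 5 and at equal covered length, so the count of members called was 0 in each. With joining within 3 kb, 2 members (FOS and BATF3) were called for H3K27me3 and 1 (ATF3) for H3K36me2 between F1295A and WT, where the genes called in all rose from 125 to 281 and from 450 to 868. With a limit of 15 points, 2 (FOS and ATF3) were called for H3K27me3 between D1240A and WT and 1 (ATF3) for H3K36me2 between F1295A and WT, with rises over all genes from 153 to 279 and from 450 to 855. At H3K27ac starts FOS stayed called between WT and TKO under all alternatives. A peak listed in only 1 of a pair of lists is called at any ratio limit and after division by the list median. Those alternatives therefore could not change this call. With the summit inside the window 2 members were called between WT and TKO (FOS and FOSL2) and 2 between D1240A and WT (FOSB and FOSL2), where all genes called rose from 1010 to 1260 and from 1219 to 1413, and with division by the list median 2 (FOS and JUN) and 1 (JUN), where they fell to 867 and 797. JUNB had no summit inside the window in any list, so it could not be called there. Over windows, 10 kb flanks gave 1, 2 and 2 members for H3K27me3 (FOS in each, ATF3 in the last pair of contrasts) and 1 for H3K27ac in D1240A and in F1295A against WT (JUNB), with all genes going from 219 to 279, 386 to 402 and 433 to 426 for H3K27me3 and from 72 to 165 and 196 to 244 for H3K27ac. They also called JUNB (-17.98 points) in place of ATF3 for H3K36me2 between WT and TKO, with 1534 genes in all against 1429. With 50 kb flanks 2 were called for H3K36me2 between F1295A and WT (ATF3 and BATF3), with 1106 genes in all against 1201, and 0 for H3K27me3 in either mutant against WT (347 and 412 genes in all) and for H3K27ac between WT and TKO (14 in all against 42). Equal covered length left 0 for H3K36me2 between WT and TKO and 0 for H3K27me3 in either mutant against WT, where the ATF3 differences reversed to 0.85 and 1.47 points. Peaks of −log10 q of at least 5 left 0 for H3K36me2 in WT against TKO and in F1295A against WT. The cause was not tested. An alternative chosen after seeing the data, either gene end for all genes, called FOS alone between WT and TKO and no member in the other contrasts. The FOS peaks rest on 12 to 48 fragments, so small differences there were not detectable at this depth.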
